A study of Homo sapiens with 32 samples.

Results

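The accessible genome of HEK293T cells without degrader was described from 8 control ATAC-seq libraries, replicates 9 to 16, of 32 libraries described for the study. HEK293T is a human embryonic kidney line transformed with adenovirus DNA and carrying the SV40 large T antigen. The cells came from one clone, ZD29, in which the zinc finger factor ZNF143 bears an inducible degron tag, so every library carries the tagged allele, and all 8 are labelled DMSO, the solvent of the degrader dTAGV-1, although the protocol text speaks of no treatment. The matching libraries given 50 nM dTAGV-1 for 30 minutes were not analysed here and no treatment was compared. Libraries were chosen by their labels, not by any measured value. The labels do not say whether replicates were separate cultures, so p-values measure only the spread between these libraries, which may be technical.

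ATAC-seq marks DNA that the Tn5 transposase can reach. Promoters of genes in use, and many CpG islands whether or not the gene is transcribed, are kept free of nucleosomes and give strong signal, while enhancers and CTCF-bound sites are open in a pattern that differs between cell types. HEK293 cells have long been debated as to origin: they were derived from embryonic kidney, yet express several neuronal and adrenal genes. Accessibility is not expression, and a gene with an open promoter may be silent.

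The table held counts for 212358 windows of one fixed length on hg38. Counts were scaled by each library's total to CPM, so that every library has the same sum. The 40300 windows centred no more than 500 bp from a GENCODE transcript start are called promoter windows, and the other 172058 distal. A gene is said to have a window when at least 1 promoter window lay at one of its starts, and its level is that of the strongest. The windows were called by the authors, so a gene without one is not shown to be closed. Library totals ran from 2275856 to 11418578 counts. Replicate 12 had the lowest total and stood apart. It had 35.1% of its counts in promoter windows, whereas the other libraries had 47.6% to 49.7%. Its correlation with the others on the log2(CPM + 1) scale went down to 0.732, against 0.925 to 0.951 among the 21 pairs of the rest. Means below include it, and values without it are given where they matter.

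The sequences of 3 of the strongest promoters and of a kidney gene with no window are shown as examples of the motifs and CpG content compared with level below. They run from 250 bases before to 50 after the RefSeq start (GRCh38.p14), in the direction of the gene. Capitals mark the NFY box, which is CCAAT followed by C or G and then A or G on either strand, and the SP and KLF box GGGGCGGGG.
TLE4, chr9:79571715-79572014: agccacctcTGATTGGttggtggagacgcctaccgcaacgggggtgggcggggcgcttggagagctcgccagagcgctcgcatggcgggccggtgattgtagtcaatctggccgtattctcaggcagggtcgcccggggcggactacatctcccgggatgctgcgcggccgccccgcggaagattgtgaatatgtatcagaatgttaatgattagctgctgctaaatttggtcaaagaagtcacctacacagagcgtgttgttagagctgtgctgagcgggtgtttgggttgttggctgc
PCDH9, chr13:67230287-67230586: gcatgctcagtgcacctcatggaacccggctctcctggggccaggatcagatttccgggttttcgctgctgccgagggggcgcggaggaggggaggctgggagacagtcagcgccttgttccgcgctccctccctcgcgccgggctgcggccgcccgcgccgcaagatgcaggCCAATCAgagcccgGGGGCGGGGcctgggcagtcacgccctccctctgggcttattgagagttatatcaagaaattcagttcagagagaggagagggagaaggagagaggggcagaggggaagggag
COQ8A, chr1:226940044-226940343: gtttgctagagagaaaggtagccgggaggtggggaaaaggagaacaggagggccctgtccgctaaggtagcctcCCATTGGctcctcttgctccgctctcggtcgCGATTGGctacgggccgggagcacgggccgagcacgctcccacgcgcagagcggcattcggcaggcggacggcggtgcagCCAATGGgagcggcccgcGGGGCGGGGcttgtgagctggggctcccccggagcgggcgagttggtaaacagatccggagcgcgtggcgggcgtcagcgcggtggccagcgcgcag
UMOD, chr16:20352666-20352965: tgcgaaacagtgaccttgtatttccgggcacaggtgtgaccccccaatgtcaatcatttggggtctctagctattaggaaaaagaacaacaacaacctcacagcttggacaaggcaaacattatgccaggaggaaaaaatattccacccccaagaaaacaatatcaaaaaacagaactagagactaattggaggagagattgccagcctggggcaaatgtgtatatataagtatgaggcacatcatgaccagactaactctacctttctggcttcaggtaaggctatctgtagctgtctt
The TLE4 stretch holds 1 NFY box and 22 CpG pairs. PCDH9 holds an NFY box followed by an SP and KLF box, with 20 CpG pairs. COQ8A holds 3 NFY boxes and an SP and KLF box, with 34 CpG pairs. UMOD, the gene of the most abundant urinary protein, holds neither box and 2 CpG pairs. Other promoters go the other way: PIBF1 and DESI2, both among the 10 strongest, hold no NFY box, and ALB, the albumin gene with no window, holds one. Over all 35116 RefSeq promoters of this length, 16.6% held the NFY box and 15.7% the SP and KLF box.

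Promoter windows were the stronger class. Promoter windows made up 19.0% of windows and took 47.4% ± 5.02 (SD, n = 8) of the counts, or 49.2% ± 0.731 without replicate 12. Their median level was 7.13 CPM, against 1.93 CPM for distal windows. Within libraries the mean log2(CPM + 1) of promoter windows was higher by 1.31 ± 0.20 than that of distal windows, ranging from 0.82 in replicate 12 to 1.43 (exact two-sided sign-flip permutation test, p = 0.00781, the smallest that 8 libraries allow; higher in 8 of 8). Of windows under 2 CPM, 6.61% were promoter windows, while at 50 CPM or more 94.6% were.

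**Figure D1:**
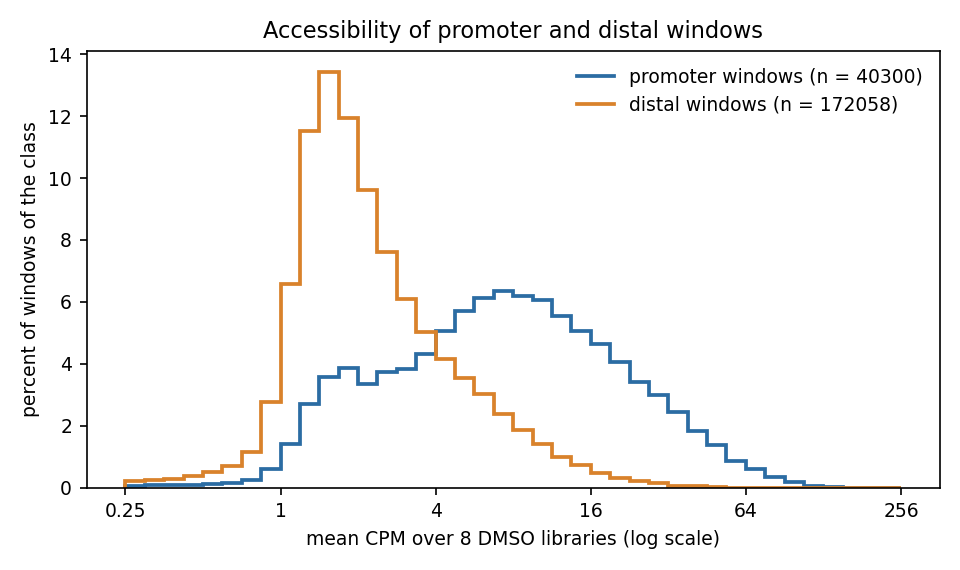
Distribution of mean CPM over the 8 DMSO libraries (log axis) for promoter windows (blue) and distal windows (orange), as the percent of each class per bin. Promoter windows spread around a median of 7.13 CPM, and distal windows gather around 1.93 CPM with a long upper tail.

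Most distal windows lay within genes. Introns held 59.7% of distal windows and intergenic DNA 35.1%, with coding exons at 1.38%. The share of the genome in each of these classes was not measured, so no preference can be read from this. The median distance from a distal window to the nearest start was 11681 bp. Strong distal windows were few: among windows over 2000 bp from every start that did not overlap a stronger one, 4430 reached 10 CPM, 812 reached 20 CPM and 37 reached 50 CPM. Windows on annotated mitochondrial pseudogenes numbered 14 and reached at most 9.76 CPM.

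Of 20046 protein-coding genes, 15163 had a window, or 75.6%. The level of those genes had a median of 16.7 CPM, with 10581 genes at 10 CPM or more, 1176 at 50 or more and 68 at 100 or more. Among 18866 lncRNA genes 6123 had a window, or 32.5%. Of these 57.2% had no protein-coding start within 500 bp of that window, and their median was 3.85 CPM, against 17.9 CPM for those whose window was shared with a protein-coding start.

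Sequence class went with both. Classes were set at the canonical start. CpG-rich starts had a CpG observed over expected ratio of at least 0.75 and at least 55% GC over 250 bp on each side, and CpG-poor starts a ratio under 0.48. Protein-coding genes with CpG-rich starts had a window in 9990 of 10527 cases (94.9%), those with intermediate starts in 79.6%, and those with CpG-poor starts in 1893 of 5397 (35.1%). Median levels were 18.8, 17.6 and 4.37 CPM in that order. The lncRNA genes were ordered the same way, with 84.4%, 54.8% and 17.4%.

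A gene without a window is not always one without signal. The separate list of summits deposited for replicates 1 to 8 had a summit within 500 bp of a start for 92.7% of protein-coding genes with a window and for 354 of the 4883 without one (7.25%). These 354 include genes that every cell uses. RPL24, a protein of the ribosome, PSMB5, a catalytic subunit of the proteasome, and POLR2J, a subunit of RNA polymerase II, had a summit but no window, and the nearest window with counts lay 15362, 9418 and 11622 bp away. These genes were chosen after their values were seen.

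A second set of windows had no readable level. There were 2925 windows with 0 counts in all 8 libraries, although the authors' deposited -log10 q values for them had a median of 35.9 and reached 3205, against a median of 23.2 for windows with counts. They fell in blocks: 24 runs of at least 20 such windows in a row held 869 of them, among them chr6:28950874-31137628 within the major histocompatibility region, chr14:92923342-94181042 and the region shared by X and Y. Of protein-coding genes with a window, 315 had their strongest at 0, 87 of them on chromosome 6. The cause was not tested, and a 0 there cannot be read as closed chromatin. Among listed genes it touches LHX1, WNT9B, PVALB, CHGA and CYP21A2, which count as having a window but enter no median. IRF7, at 0.153 ± 0.227 CPM although the authors gave its window a -log10 q of 38.9, shows the same mismatch.

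The strongest protein-coding promoter was that of TLE4, a Groucho family corepressor. In its window, chr9:79571567-79571967, the 8 libraries ran from 136 through a median of 231 to 242 CPM, with a mean of 219.5 ± 35.0. Replicate 12 was the low one and the others lay between 215 and 242. PCDH9, a protocadherin of neural tissue, followed at 189 ± 37.2 CPM in chr13:67230318-67230718, from 101 in replicate 12 to 213. The start shared by BORA, an activator of Aurora A kinase, and MZT1 had 152 ± 29.1 CPM. BPGM, which makes 2,3-bisphosphoglycerate, had 152 ± 30.1 CPM, and KLF5, a Krüppel-like factor, had 149 ± 35.4 CPM. PDIA4, a chaperone of the endoplasmic reticulum, and COQ8A, which acts in coenzyme Q synthesis, each had 146 CPM. DESI2 and the window shared by MYL11 and TBC1D10B each had 138 CPM, and the start shared by PIBF1 and DIS3 had 137 ± 22.6 CPM. The MYL11 window lay 4001 bp from that gene's canonical start. The lowest library was replicate 12 in all 10 promoters, and without it their means ran from 142 to 231 CPM.

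**Figure D2:**
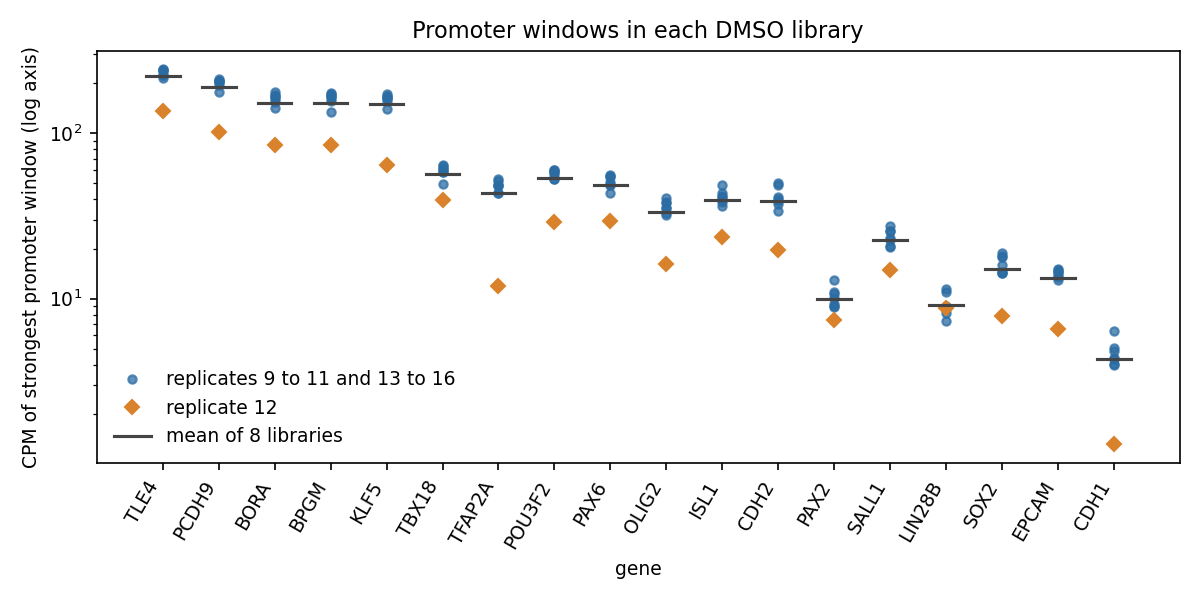
CPM of the strongest promoter window (log axis) in each of the 8 DMSO libraries for 18 genes, with the mean as a bar and replicate 12 as an orange diamond. Replicate 12 is the lowest library in 17 of the 18 genes, LIN28B being the exception, and TFAP2A shows the widest gap, with 11.9 CPM against 43.5 to 52.9.

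Across the 10581 protein-coding promoters of at least 10 CPM, replicate 12 was the lowest library in 84.1%, and its level was at a median 62.5% of the mean of the others. The median coefficient of variation over libraries was 17.4%, and 9.82% without it. The 5 promoters of largest SD were PCDH9, KLF5, TLE4, DESI2 and ARHGAP4, all strong ones. The steadiest by SD were ARL1 at 11.6 ± 0.349 CPM, CXCL2 at 11.7 ± 0.421, LAMB2 at 12.5 ± 0.574, GSTM4 at 10.5 ± 0.608 and VAT1 at 11 ± 0.667 CPM. In ARL1 replicate 12 had 11.9 CPM and was among the high libraries.

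Of 40 kidney development genes 32 had a window (80.0%), close to the 75.6% of all protein-coding genes, and 2 of these were at 0 throughout. With windows that have a count in any library it was 30 of 40, against 74.1% of all. The median of the other 30 was 16.9 CPM. TBX18, a factor of the ureteric mesenchyme, had 39.5, 59.3 and 64.5 CPM as its lowest, median and highest library, with a mean of 56.8 ± 8.36. TFAP2A, an AP-2 factor of the distal nephron and neural crest, had 11.9, 48.2 and 52.9 CPM, in a window 10539 bp from its canonical start. Replicate 12 lay far below the other 7, which had a mean of 48.0 ± 3.52. SIX4 had 42.5 ± 6.81 CPM, and its relative SIX2, a factor of nephron progenitors, had 38.4 ± 8.57 CPM. PAX2, a regulator of the early kidney, was lower, at 9.93 ± 1.64 CPM (7.47 to 12.9), and WT1, which acts in progenitors and podocytes, had 7.69 ± 1.72 CPM. At the low end OSR1 had 3.56 ± 0.734 and WNT4 3.83 ± 1.55 CPM. The 8 without a window included PAX8, SALL4, HNF4A, TFAP2B, TCF21, IRX1 and IRX2. For PAX8, SALL4 and TFAP2B the nearest window with counts lay 1092, 1242 and 902 bp from a start.

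Genes of the differentiated nephron were listed by segment, and the lists were not tested against each other. A window was found for 23.1% of proximal tubule, 80.0% of podocyte and 66.7% each of loop and distal tubule and collecting duct genes. Over all protein-coding genes the share was 75.6%, and over those with CpG-poor starts 35.1%. CpG-poor were 8 of 12 loop and distal tubule and 6 of 12 collecting duct starts. Of 13 proximal tubule genes, 3 had a window, among them LRP2, the endocytic receptor megalin, at 8.91 ± 2.07 CPM and GGT1 at 1.80 ± 1.27 CPM. The transporters SLC34A1, SLC5A2, SLC5A12, SLC22A6, SLC22A8, SLC22A12, SLC13A1 and SLC6A19, with CUBN and AQP1, had none, although SLC34A1 had a summit in replicates 1 to 8. Of these 13 starts, 11 were CpG-poor. Of 10 podocyte genes 8 had a window, with a median of 6.39 CPM. CD2AP, which is expressed in many cell types, had 27.1 ± 5.70 CPM and PODXL 16.2 ± 5.04, while KIRREL1 had 8.10 ± 2.22, PTPRO 4.69 ± 0.668, SYNPO 4.27 ± 1.15, CLIC5 4.19 ± 1.96 and NPHS1, the gene of nephrin, 3.55 ± 1.03 CPM at a start 6927 bp from the canonical one. PLA2R1 had no window. Among 12 genes of the loop and distal tubule 8 had a window, but only 4 did at their canonical start. CLDN16 had 13.7 ± 2.79 CPM in a window at the start of CLDN1, TRPM6 11 ± 2.35, SLC12A1 4.96 ± 1.26 in a window shared with CTXN2 and MYEF2, EGF 2.87 ± 0.624 and SLC12A3 2.10 ± 0.729 CPM. UMOD, shown above, had no window, nor had KCNJ1, CLDN10 and CASR. Collecting duct genes had a window in 8 of 12 cases, led by AQP3 at 14.5 ± 3.73 CPM, SCNN1G at 6.97 ± 1.54 and SCNN1A at 6.02 ± 0.714. The others were TFCP2L1 at 4.53 ± 1.72, SLC26A4 at 3.19 ± 1.70, SCNN1B at 2.58 ± 0.384, KRT7 at 1.04 ± 0.543 and ATP6V1B1 at 0.967 ± 0.359 CPM, while AQP2, SLC4A1, FOXI1 and AVPR2 had none.

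Neural genes had a window in 25 of 30 cases (83.3%, against 75.6% of all protein-coding genes), or 24 with windows that have a count in any library (74.1% of all), with CHGA at 0 and a median of 10.0 CPM for the rest. POU3F2, a POU factor of neural progenitors, had 29.0, 56.9 and 59.6 CPM as its lowest, median and highest library. PAX6, of eye and forebrain, had 29.4, 49.8 and 56 CPM, and OLIG2, of the oligodendrocyte lineage, 16.3, 35.3 and 40.8 CPM. Replicate 12 was the low one in all 3 genes. At the other end FABP7 had 2.27 ± 0.598 and NEFH 3.32 ± 0.987 CPM. SOX1, SOX3, SOX11, DCX and ELAVL3 had no window. Of the 30 starts 21 were CpG-rich, and 17 of those had a window, while over all CpG-rich protein-coding starts the share was 94.9%.

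In the adrenal cortex list 5 of 10 genes had a window (50.0%, against 75.6% of all protein-coding genes), or 3 at their canonical start. Of the 10 starts 7 were CpG-poor. Of those with a window, the 2 over 10 CPM, FDX1 at 24.9 ± 7.74 and SCARB1 at 20.7 ± 5.68 CPM, act in many tissues. NR0B1 had 2.36 ± 0.53 and CYP11A1 1.19 ± 0.551 CPM, CYP21A2 was at 0, and NR5A1, the master regulator of steroidogenic cells, CYP17A1, HSD3B2, MC2R and MRAP had no window. Of 13 chromaffin and sympathetic genes 9 had one (69.2%), or 6 at their canonical start, and 8 of the 13 starts were CpG-rich. The difference between both lists was not tested. ISL1, a LIM factor of sympathetic and motor neurons, had 39.2 ± 7.29 CPM (23.7 to 48.9), GATA2 28.9 ± 4.17 and GATA3 19.1 ± 4.71 CPM. HAND1 had 8.89 ± 1.35, HAND2 7.87 ± 1.81, PNMT 6.19 ± 1.52, INSM1 6.09 ± 1.51 and TH, the rate-limiting enzyme of catecholamine synthesis, 5.25 ± 1.02 CPM at a start 5528 bp from the canonical one, with DDC at 1.52 ± 0.749. The sympathetic factor PHOX2A, DBH and SLC18A2 had none.

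**Figure D3:**
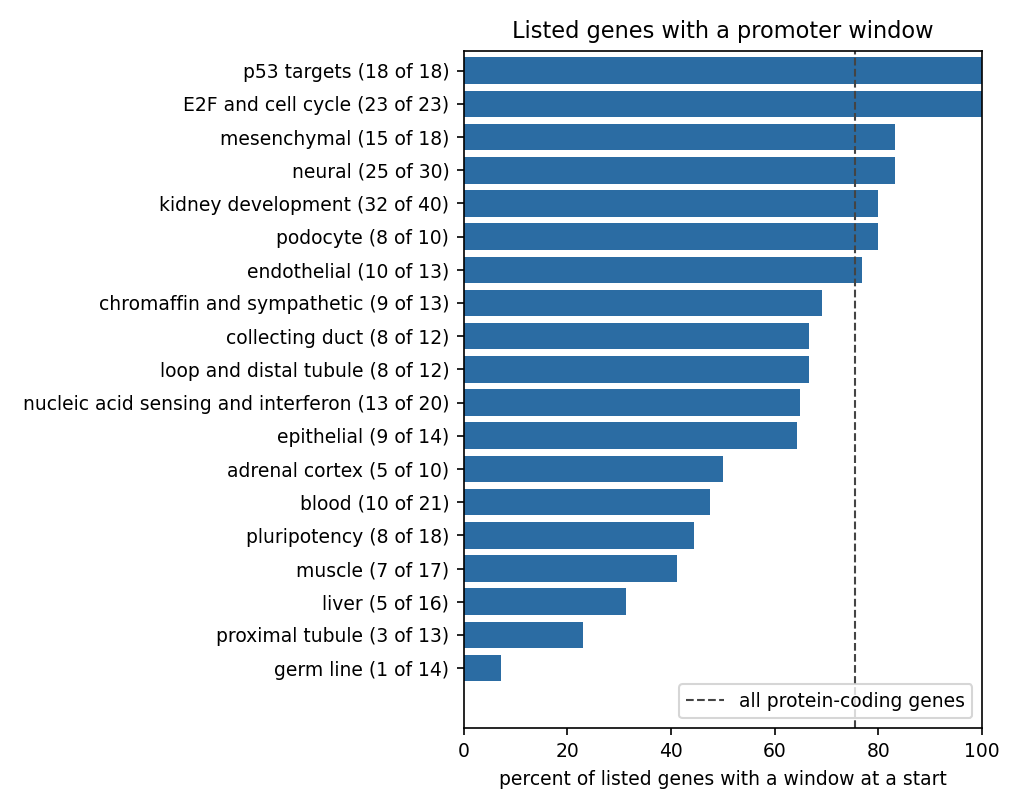
Percent of the genes of each list with a window within 500 bp of a start, with counts in brackets and the dashed line at 75.6%, the share of all protein-coding genes. Cell cycle and p53 target genes fill their lists, and germ line and proximal tubule genes are the least represented.

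Markers of other lineages were examined in the same way. Over all protein-coding genes 75.6% had a window, and over those with CpG-poor starts 35.1%. Pluripotency genes had a share of 44.4% and germ line genes 7.14%, with 4 CpG-poor starts in each list. Of 18 pluripotency genes 8 had a window: ESRRB at 20.9 ± 2.43 CPM, KLF4 at 16.2 ± 2.52, SOX2 at 15.2 ± 3.46, DNMT3B at 10.5 ± 2.39, LIN28B at 9.18 ± 1.38, UTF1 at 4.06 ± 1.62, TDGF1 at 1.92 ± 0.727 and DPPA4 at 1.20 ± 0.644 CPM. POU5F1, NANOG, LIN28A, ZFP42, DPPA2, DPPA3, DPPA5, PRDM14, SALL4 and L1TD1 had none. Of 14 germ line genes only MAEL had one, at 8.95 ± 2.04 CPM, and that window lay at the start of ILDR2 and 13418 bp from the canonical start of MAEL. DDX4, DAZL, PIWIL1, SYCP1, SYCP3, TEX14, BOLL, STRA8, DMRT1, PRM1, PRM2, TNP1 and ACR had none. Endothelial genes had a window in 10 of 13 cases (76.9%), near the share of all protein-coding genes, or 7 at their canonical start. Of the 13 starts 9 were CpG-poor. The median was 2.48 CPM, with KDR at 12.6 ± 3.67 CPM. Among the 3 lowest, ROBO4 had 1.05 ± 0.729 CPM, ERG 1.33 ± 0.627 and TEK 1.37 ± 1.31. FLT1 had 5.73 ± 1.26, FLI1 4.96 ± 1.23, SOX18 3.59 ± 1.82, EGFL7 3.25 ± 0.490, CDH5 1.70 ± 0.869 and EMCN 1.52 ± 0.406 CPM, and PECAM1, TIE1 and VWF had none.

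Blood, liver and muscle genes had a window in 47.6%, 31.2% and 41.2% of cases, against 75.6% of all protein-coding genes. CpG-poor starts were 13 of 21, 10 of 16 and 10 of 17 in that order. Over all protein-coding genes with CpG-poor starts the share with a window was 35.1%. Blood genes had a window in 10 of 21 cases, and in 5 at their canonical start. RUNX1 had 33.8 ± 5.28 CPM at a start 160548 bp from the canonical one and EOMES 23.1 ± 7.51 CPM. TBX21 had 9.42 ± 1.95, IRF8 9.36 ± 1.47, LCK 5.66 ± 2.00, PAX5 5.22 ± 0.661, IKZF1 2.69 ± 1.28, CSF1R 1.75 ± 0.723 and RUNX3 1.20 ± 0.657 CPM. PTPRC, which encodes CD45, CD3E, CD3D, MS4A1, CD79A, SPI1, GATA1, TAL1, CD14, HBB and LYZ had none. In the liver list 5 of 16 had a window, or 3 at their canonical start: CYP2E1 at 14 ± 2.75 CPM, 7004 bp from its canonical start, FOXA1 at 8.96 ± 2.01, ONECUT1 at 6.03 ± 1.07, FOXA3 at 4.76 ± 1.44 and FOXA2 at 1.28 ± 0.463 CPM. ALB, APOA1, APOB, APOC3, TTR, SERPINA1, FGA, FGB, AHSG, CYP3A4 and HNF4A had none, with a summit of replicates 1 to 8 at ALB and FGA. Of 17 muscle genes 7 had one, or 4 at their canonical start, with NKX2-5, a cardiac homeobox factor, at 39.9 ± 6.11 CPM, MEF2C at 14 ± 2.59, TNNI3 at 12.7 ± 1.71, MYOD1 at 7.17 ± 1.17, TNNT2 at 6.46 ± 1.15, DES at 1.77 ± 0.441 and MYOG at 1.38 ± 1.08 CPM. MYF5, MYF6, MYH1, MYH2, MYH3, ACTA1, CKM, MYH6, MYH7 and TBX5 had none.

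Of 14 epithelial genes 9 had a window (64.3%), below the 75.6% of all protein-coding genes, and 6 did at their canonical start (70.2% of all). ESRP2, a splicing regulator of epithelia, had 30.5 ± 2.74 CPM, KRT8 20.2 ± 4.02, GRHL1 17.2 ± 4.74, EPCAM 13.3 ± 2.79 at a start 24193 bp from the canonical one, CLDN4 12.4 ± 1.45 and KRT18 9.06 ± 1.05 CPM. CDH1, which encodes E-cadherin, had 4.30 ± 1.43, ELF3 3.68 ± 0.744 and CLDN7 3.31 ± 2.10 CPM, and KRT5, KRT14, KRT19, OVOL1 and TP63 had none. Mesenchymal genes had one in 15 of 18 cases (83.3%), and 13 did at their canonical start. CDH2, which encodes N-cadherin, had 38.7 ± 9.40 CPM with libraries from 19.8 to 50.2, TWIST1 17.2 ± 5.25 and SNAI1 15 ± 4.71 CPM. PDGFRB at 1.97 ± 0.835, DCN at 2.02 ± 0.614 and COL3A1 at 2.22 ± 0.474 CPM were the lowest, and COL1A2, PDGFRA and THY1 had none. The lowest library for CDH2, at 19.8 CPM, lay above the highest for CDH1, at 6.39 CPM. Both are promoter CPM over windows of one length, and copy number was not analysed at either gene. The 5 Mb bin of CDH2 had 100.8 distal windows per Mb and that of CDH1 53.6. The 90th percentile over bins was 95.2, and the part of copy number in this difference was not tested. The list medians ran the other way from CDH2 and CDH1, at 12.4 CPM for epithelial and 6.86 CPM for mesenchymal genes with a window. None of these differences was tested.

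Large T antigen binds the RB and p53 proteins, which restrain E2F and activate stress genes. All 23 E2F and cell cycle genes had a window, against 75.6% of all protein-coding genes and 94.9% of those with CpG-rich starts. Of the 23 starts 19 were CpG-rich. The median of the list was 33.3 CPM, against 16.7 CPM for all protein-coding genes with a window. E2F3 had 57.6, 105 and 119 CPM as its lowest, median and highest library, MCM3, of the replicative helicase, 88.1 ± 16.3 and CCNB1, a mitotic cyclin, 53.5 ± 9.71 CPM. CDT1 at 7.59 ± 1.82, E2F2 at 8.98 ± 0.871 and FOXM1 at 13.4 ± 2.60 CPM were the lowest. All 18 p53 targets had a window too, with a median of 21.0 CPM, and 12 of the 18 starts were CpG-rich. GADD45A, a stress-response gene, had 75.6, 143 and 158 CPM, CCNG1 78.1 ± 18.4 and XPC, of DNA repair, 42.9 ± 5.37 CPM. At the low end ZMAT3 had 7.94 ± 2.01 and BBC3 8.16 ± 1.62 CPM. None of the starts in either list was CpG-poor, and the level of both lists was not compared with starts matched for CpG content. The 5 Mb bins of GADD45A and XPC had 124.2 and 110.4 distal windows per Mb, while that of CCNG1 had 30. The 90th percentile over bins was 95.2, and the part of copy number in the levels of these genes was not tested.

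Nucleic acid sensing genes had a window in 13 of 20 cases (65.0%), against 75.6% of all protein-coding genes, and 6 of the 20 starts were CpG-poor. STAT2, a signal transducer of interferon, had 58.9 ± 12.5 CPM, IFNAR1, a receptor subunit, 34.2 ± 4.63 CPM. At the lower end IRF7 had 0.153 CPM with the limit given above, TICAM1 had 1.80 ± 0.783 and STING1, the adaptor of DNA sensing, 3.93 ± 0.964 CPM. CGAS, the DNA sensor upstream of STING1, MYD88, IFNB1 and TLR4, TLR7, TLR8 and TLR9 had none. For CGAS the nearest window with counts was 9141 bp away, and for MYD88 1320 bp.

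Gene families ran from nearly none to all with a window, beside 75.6% of all protein-coding genes. Of 415 olfactory receptors 21 had one, or 20 with a count in any library, at a median of 1.49 CPM. OR1F1 was the highest at 9.35 ± 2.57 CPM. Replicate 12 was its high library, at 14.5 CPM, and without it the mean was 8.62 ± 1.63 CPM. Keratin-associated proteins had 2 of 94, beta defensins 3 of 40, taste and vomeronasal receptors 2 of 31 (1 with a count in any library) and type I interferons 0 of 14. Keratins had 10 of 55, with KRT8 the strongest. All 78 mitochondrial ribosomal protein genes, all 37 complex I genes and all 28 Mediator genes had a window, as did 80 of 86 cytosolic ribosomal protein genes. With windows that have a count in any library these were 76, 36, 28 and 79. Zinc finger genes named ZNF had a window in 441 of 508 cases, or 434 with a count in any library, at a median of 17 CPM. Clustered protocadherins had 19 of 53 at a median of 1.85 CPM, whereas replication-dependent histones had 52 of 69 at 28.1 CPM. Among developmental factors, HOX genes had a window in 32 of 39 cases, FOX in 33 of 46, SOX in 14 of 19 and TFAP2 in 2 of 5. The first 3 shares, 82.1%, 71.7% and 73.7%, lie near the 75.6% of all protein-coding genes. TBX3 led the TBX family at 88.2 CPM, GATA6 the GATA family at 41.8 CPM and NKX6-1 the NKX family at 41.3 CPM.

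Among windows over 2000 bp from a start, the strongest lay at chr13:66835128-66835528 in an intron of PCDH9, 68277 bp from the nearest PCDH9 start and 10159 bp from that of its antisense RNA PCDH9-AS2, with 78.7, 141 and 151 CPM as lowest, median and highest library. The next 2 lay in intergenic DNA on chromosome 9, at chr9:79256759-79257159 with 85.6 ± 17.5 CPM and chr9:79447795-79448195 with 82.2 ± 16.1 CPM, 314814 and 123778 bp from TLE4, the nearest protein-coding start for both. The 2 strongest protein-coding promoters and the 3 strongest distal windows were thus found at 2 loci, where copy number was not analysed. The others of the 10 were chr1:33127206-33127606 (81.7 ± 8.79 CPM, intergenic, 32762 bp from AZIN2), chrX:49191145-49191545 in an untranslated region of the synaptic vesicle gene SYP (79.5 ± 19.1 CPM), chr17:82367815-82368215 near UTS2R (74.0 ± 11.3 CPM), chr14:102524597-102524997 near ANKRD9 (73.9 ± 15.9 CPM), chr3:13895328-13895728 near WNT7A (68.7 ± 13.6 CPM), chr7:25862217-25862617 (68.3 ± 10.3 CPM) and chr18:69838951-69839351 in an intron of DOK6 and CD226 (66.3 ± 11.9 CPM). Replicate 12 was again the lowest library in all 10.

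Distal windows were also summed around transcription factor genes, with no comparison to other genes. Over 341 such genes, the median was 9 non-overlapping distal windows within 50 kb of a start, with a summed level of 39.3 CPM. FOXP1, a forkhead repressor with a very long gene and many starts, had 117 windows with a sum of 485 ± 34.7 CPM. The 5 Mb bin of its strongest window had 102 distal windows per Mb, against a 90th percentile of 95.2 over bins. The part of copy number in the FOXP1 sum was not tested. The HOXC genes HOXC6, HOXC4, HOXC8, HOXC5 and HOXC9 lie side by side, have the same strongest window (chr12:54017817-54018217) and had sums of 217, 216, 192, 185 and 170 CPM. KLF12 had 212 ± 14.8 CPM, ELF2 212 ± 21.2, RARB 201 ± 22.1, POU4F1, of sensory neurons, 178 ± 10.7 and HOXB3 169 ± 15.7 CPM. Of the kidney development genes, FOXC1 had 165 ± 5.04 CPM from 16 windows and PAX2 60.1 ± 10.6 CPM from 19. PAX8, which had no promoter window, had 14 distal windows summing to 46.1 ± 4.76 CPM. NR5A1 likewise had 14, summing to 50.0 ± 6.32 CPM. Genes with more or more widely spaced starts span more DNA, so these sums are not per length.

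Signal was not spread evenly along the genome. Chromosome 13 held 101 distal windows per Mb, against 36.5 on chromosome 2. Over 596 bins of 5 Mb the median was 53.5 distal windows per Mb, and the 7 densest bins were the consecutive ones from 60000001 to 95000000 on chromosome 13, with 216 to 294 per Mb. The next was chr18:30000001-35000000 with 199 per Mb. CpG-rich promoters in these bins were also strong: the 12 in chr13:75000001-80000000 had a median of 50.3 CPM and the 8 in the chromosome 18 bin 49.9 CPM, against 20.4 CPM as the median over bins. PCDH9, BORA, KLF5 and PIBF1, 4 of the 10 strongest promoters, lie in this stretch of chromosome 13. HEK293T has an abnormal karyotype, and more copies of a region give more counts there. Copy number was not analysed here. Copy number and accessibility per copy therefore cannot be told apart for these promoters, windows and KLF12 and POU4F1, which lie in the same stretch. The same holds for TLE4, whose bin had 111 distal windows per Mb and a CpG-rich promoter median of 37.1 CPM. Bins of COQ8A, PDIA4 and DESI2 had 137, 108 and 105 per Mb, with medians of 35.3, 40.5 and 42.8 CPM. The 90th percentile over bins was 95.2 per Mb. Those of BPGM and MYL11 lay below it, at 63.6 and 35 per Mb.

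**Figure D4:**
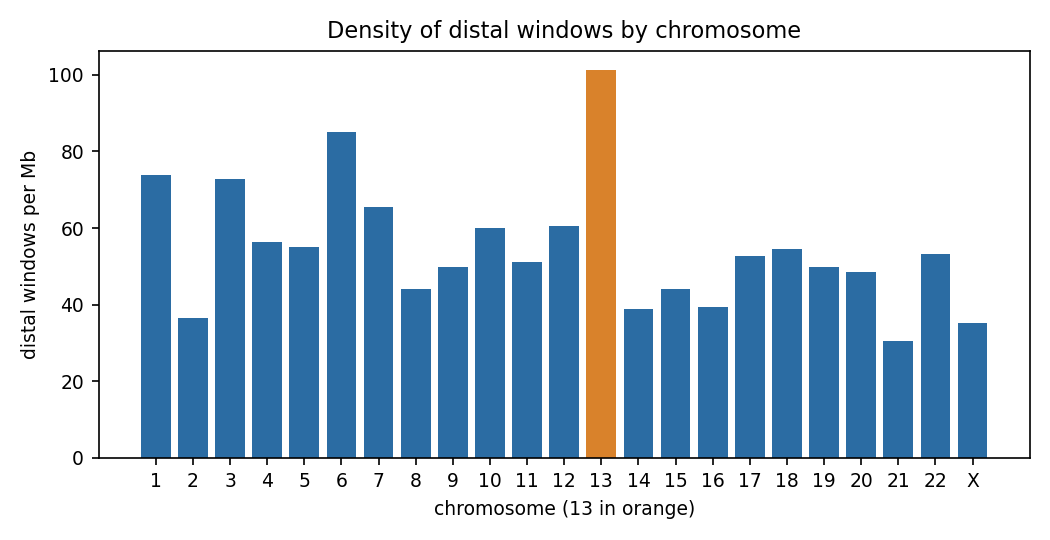
Distal windows per Mb of chromosome length for chromosomes 1 to 22 and X, with chromosome 13 in orange. Chromosome 13 has 101 per Mb and chromosome 6 has 85.1, while chromosome 21 has 30.4.

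The sequences under strong distal windows are shown for several factors, from hg38, with the searched motif in capitals and written in the direction of the motif. The first 2 are NFY boxes in windows of the strongest 10. The others are strong windows over 2000 bp from a start with a CTCF core, an NRF1 or an ETS motif. These were chosen outside untranslated regions and not from all chromosomes, so stronger ones may exist.
NFY, chr1:33127402-33127448, minus strand: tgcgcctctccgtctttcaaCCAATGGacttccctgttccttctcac
NFY, chr14:102524753-102524799, minus strand: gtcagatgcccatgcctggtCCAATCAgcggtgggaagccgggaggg
CTCF, chr3:43769588-43769649, plus strand: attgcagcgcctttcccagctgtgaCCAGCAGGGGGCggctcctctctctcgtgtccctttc
CTCF, chr5:174327442-174327503, plus strand: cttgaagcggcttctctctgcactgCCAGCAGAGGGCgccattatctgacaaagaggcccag
CTCF, chr12:49342569-49342630, minus strand: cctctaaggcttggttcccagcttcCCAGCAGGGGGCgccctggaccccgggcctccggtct
NRF1, chr1:32712534-32712593, plus strand: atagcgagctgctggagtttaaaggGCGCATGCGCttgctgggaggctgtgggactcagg
ETS, chr5:142025058-142025115, minus strand: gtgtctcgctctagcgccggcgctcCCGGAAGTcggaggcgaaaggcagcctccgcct
The 3 CTCF windows had 45.9 ± 5.14, 36.9 ± 5.11 and 34.2 ± 4.53 CPM. The NRF1 window, 8888 bp from SYNC, had 29.9 ± 3.72 CPM, and the ETS window, 12030 bp from GNPDA1, had 42.2 ± 11.9 CPM with 15.8 in replicate 12.

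Sequence and level were compared for 21 motifs in both window classes by the within-library difference in mean log2(CPM + 1) between windows with and without the motif within 100 bp of the centre (exact two-sided sign-flip permutation test over 8 libraries, Benjamini-Hochberg over 42 tests; where all 8 libraries had one sign the adjusted p was 0.0109). Of the 21 motifs, 13 passed an adjusted p of 0.05 in distal windows and 20 in promoter windows. Windows that overlap and motifs that occur together are not independent, and GC content was not held constant.

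In distal windows CTCF, the insulator protein that anchors loops, had its core in 5815 windows (3.38%), which had a median of 3.78 CPM against 1.9 CPM for the rest. The difference was 0.58 ± 0.11 on the log2 scale, higher in 8 of 8 libraries. The SP and KLF box GGGGCGGGG was in 1997 windows with a difference of 0.80 ± 0.11. NRF1, a factor of mitochondrial and housekeeping genes had 44 windows with a difference of 1.38 ± 0.23, from 0.84 in the lowest library. The CREB box TGACGTCA had 0.39 ± 0.04, the ETS box CCGGAAGT 0.36 ± 0.05 and the YY1 motif AAGATGGCG 0.30 ± 0.06. Small but same-signed differences were found for the E-box CACGTG of USF and MYC, at 0.13 ± 0.02, NFI at 0.08 ± 0.04, the RUNX motif TGTGGTTT at 0.06 ± 0.02, PAX8 and PAX2 at 0.05 ± 0.01 and NFY at 0.04 ± 0.01. POU (ATGCAAAT) had -0.02 ± 0.01, which turned to 0.03 with the motif within 50 bp of the centre. SOX (AACAATGG) had 0.02 ± 0.02 (adjusted p = 0.0497 by the same exact test).

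Several other motifs, among them those of the enhancer factors AP1, TEAD and GATA, went with little difference in level in distal windows. Only called windows were compared, so motif frequency in open against closed DNA was not measured. AP1, the FOS and JUN dimer that binds TGA, C or G, then TCA, was in 10998 distal windows (6.39%), with a difference of 0.0054 ± 0.011 (adjusted p = 0.225 by the exact permutation test). TEAD, of the Hippo pathway, had 0.0047 ± 0.0080 (adjusted p = 0.168, exact test) and GATA -0.01 ± 0.04 (adjusted p = 0.520, exact test). The neuronal gene repressor REST, in 204 windows, had 0.01 ± 0.06 (adjusted p = 0.664, exact test), and HNF1 of renal and hepatic epithelium, in 12 windows, -0.05 ± 0.07 (adjusted p = 0.0965, exact test). The core of ZNF143, the tagged factor, was in 932 distal windows with 0.0074 ± 0.017 (adjusted p = 0.294, exact test). The ZNF143 difference depended on the distance searched, with 0.05 within 50 bp (adjusted p = 0.0103, exact test) and -0.28 within 200 bp (adjusted p = 0.0106, exact test). The TATA box TATAAA had -0.0089 ± 0.036 and RFX 0.06 ± 0.08, neither past the threshold, although RFX had 0.12 within 200 bp (adjusted p = 0.0106, exact test).

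In promoter windows ETS had the largest difference, 1.07 ± 0.09, with a median of 17.8 CPM against 6.92 CPM. NFY followed at 1.00 ± 0.09 in 4686 windows (11.6%), then NRF1 at 0.92 ± 0.09, YY1 at 0.80 ± 0.07, SP and KLF at 0.74 ± 0.14, CREB at 0.69 ± 0.07 and ZNF143 at 0.64 ± 0.04 in 350 windows. The E-box had 0.34 ± 0.04 and POU 0.15 ± 0.03, the last turning to -0.06 with the motif within 200 bp. Lower levels went with GATA, at -0.87 ± 0.13, REST at -0.61 ± 0.10, AP1 at -0.59 ± 0.11, the TATA box at -0.54 ± 0.08, TEAD at -0.50 ± 0.07 and RUNX at -0.36 ± 0.06. SOX, RFX and CTCF had -0.18 ± 0.03, -0.18 ± 0.03 and -0.15 ± 0.08, each lower in all 8 libraries (RFX, in 22 windows, turned to 0.03 with the motif within 200 bp), and PAX8 and PAX2 -0.14 ± 0.11 (adjusted p = 0.0212, exact test). HNF1, in only 2 promoter windows, had 0.20 ± 0.16 (adjusted p = 0.0410, exact test), and NFI, in 15, -0.06 ± 0.10 (adjusted p = 0.146, exact test). The HNF1 difference turned to -0.78 with the motif within 200 bp (adjusted p = 0.0106, exact test). CTCF was thus higher with the motif in distal windows and lower in promoter windows, and the difference between the classes was not tested.

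**Figure D5:**
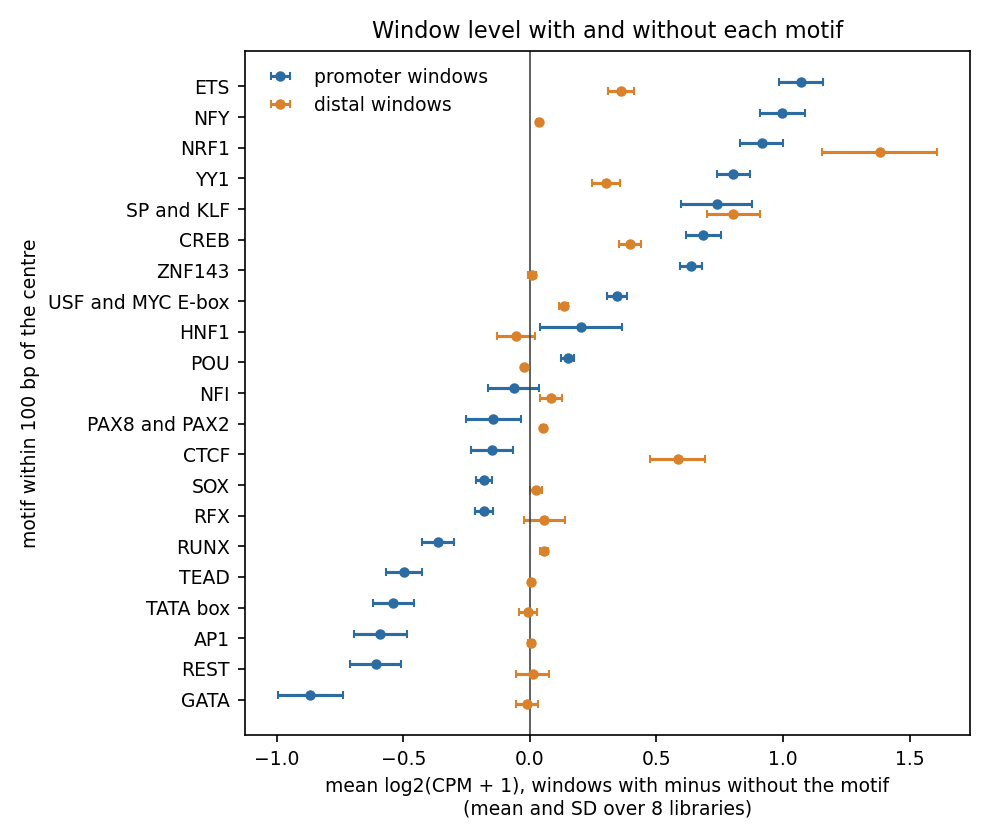
Mean log2(CPM + 1) of windows with minus windows without each motif within 100 bp of the centre, as mean and SD over 8 libraries, in promoter windows (blue) and distal windows (orange). ETS, NFY and NRF1 lead in promoter windows, NRF1, SP and KLF and CTCF in distal windows, and GATA is the lowest in promoter windows.

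The motif content of the strongest windows was set beside that of all windows of their class. Among windows that overlap no stronger one, the NFY box was in 34.4% of the 6215 promoter windows of at least 20 CPM, against 13.6% of all promoter windows, and SP and KLF in 24.0% against 14.8%. In the 812 windows over 2000 bp from a start and at least 20 CPM, NFY was in 16.0% against 7.08%, SP and KLF in 6.90% against 0.856%, and CTCF in 4.93% against 3.8%. AP1 was in 5.91% against 6.72%. These shares are descriptions with no test, and the strong windows are part of the whole they are set against.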

How the data were processed

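ATAC-seq counts of 8 DMSO libraries, replicates 9 to 16, were used from the deposited table of read counts per window, which the authors made and which holds raw counts. The 8 dTAGV-1 columns of that table were not analysed here. The summits deposited for replicates 1 to 8 and the authors' -log10 q values were used only as descriptions. Per the submitters' processing notes, cutadapt 1.8.1, Bowtie2 2.4.4 and SAMtools 1.9 were used with hg38. The peak caller, the counting tool and any Tn5 shift are not given in the sources used here.

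Counts were divided by the library total in the table and multiplied to CPM. Windows were placed by their centre against GENCODE 44 starts with Python 3.11.15, numpy 2.4.6, pandas 2.3.3, scipy 1.17.1 and pysam 0.24.0. Overlapping windows can count a read more than once. Replicates were compared as counts: chi-square per degree of freedom ran from 1.63 to 4.99 over 28 pairs, so none agreed within sampling noise. Library totals of 2275856 to 11418578 set the precision, and replicate 12 is the least precise.

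Motifs were searched on both strands. Motifs not spelled out beside the results (CTCF, TEAD, NFI, HNF1, GATA, RFX, PAX8 and PAX2, NRF1, ZNF143 and REST) used short consensus cores from general knowledge. Motifs may overlap each other. Tests were exact sign-flip permutation tests over libraries with Benjamini-Hochberg adjustment. The sign-flip test was tried only on counts simulated with sampling noise alone and a built-in motif difference. That simulation did not hold the wider spread between these libraries, a case without a difference, or the adjustment. Alternatives were other distances, canonical starts, a 1 CPM filter, another pseudocount, edgeR 4.0.16 TMM and DESeq2 1.42.0 size factors under R 4.3.3, and leaving out each library.

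Members and lists were chosen with earlier results of these data known. Named were all list members with a window where 10 or fewer had one, otherwise the 3 highest and 3 lowest, those without a window, the 10 strongest promoters and distal windows, the 12 transcription factor genes of highest summed distal CPM, and the 5 promoters of highest and lowest SD. Family leaders and further list members were named outside that rule, after their values were seen. Some listed genes are not reported here.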

Additional observations from a re-analysis of the deposited data

Results flagged for a closer look

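Of 49 groups of 8 values examined, 22 had one library whose gap to the nearest other divided by the range exceeded Dixon's 95% critical value, and that library was replicate 12 in all 22. Chance marks about 1 in 20 such groups, and these groups share their libraries, so they are not independent. Replicate 12 had 35.1% of its counts in promoter windows (others 47.6% to 49.7%), a promoter minus distal difference of 0.821 log2 (others 1.33 to 1.43), a median distal level of 3.08 CPM (others 1.70 to 2.08) and 8172 windows with 0 counts (others 4062 to 4436). It also had the lowest total, 2275856 counts, and the part of depth in these values was not tested.

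Among strong promoters it had 136 CPM at TLE4 (others 215 to 242), 101 at PCDH9 (177 to 213), 85.2 at BORA (141 to 176), 84.8 at BPGM (134 to 175) and 64.6 at KLF5 (140.3 to 172). It had 94.0 CPM at COQ8A, 65.0 at DESI2 and 86.1 at PIBF1, against lowest other values of 136, 125 and 126. The strongest distal window had 78.7 CPM in it (others 129 to 151) and the next 46.6 (others 81.4 to 106).

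Among listed genes it had 11.9 CPM at TFAP2A (others 43.5 to 52.9), 7.91 at SOX2 (14.2 to 18.8), 29.0 at POU3F2 (52.5 to 59.6), 29.4 at PAX6 (43.5 to 56) and 16.3 at OLIG2 (32 to 40.8). It had 1.32 CPM at CDH1 (4.00 to 6.39), 6.59 at EPCAM (13 to 15.1) and 57.6 at E2F3 (91.2 to 119).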

How the results depend on the processing

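The share of protein-coding genes with a window was 73.2% within 250 bp, 78.2% within 1000 bp, 70.2% at canonical starts, 73.6% with windows of at least 1 CPM and 74.1% with windows counted in any library, the last chosen after seeing the data. For lncRNA genes these were 27.9%, 38.5%, 29.3%, 30.6% and 31.7%. With the last 2 filters CpG-rich starts had 92.6% and 93.0%, intermediate ones 77.5% and 78.0%, and CpG-poor ones 33.3% and 34.1%. The promoter share of counts was 39.9% within 250 bp and 53.2% within 1000 bp, and 47.1% to 49.2% leaving out each library. The promoter minus distal difference kept its direction and threshold in all 13 alternatives, from 1.30 to 1.61. Of 63 lists and families, 28 had a share above that of all protein-coding genes, and 24 did at canonical starts, where 55 were on the same side as before.

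Distal motif differences changed sign within 50 bp for GATA (3.3e-05), POU (0.03) and REST (-0.02), and within 200 bp for AP1 (-0.00089), HNF1 (0.01) and ZNF143 (-0.28). Over 2000 bp from a start they did for HNF1 (0.08), GATA (0.04), RFX (-0.10), ZNF143 (-0.0092), the TATA box (0.03) and REST (-0.03), and without replicate 10 for REST (-0.0065, and up to 0.02 leaving out each other library). In promoter windows HNF1 changed within 50 bp (-1.03) and within 200 bp (-0.78), and POU (-0.06) and RFX (0.03) within 200 bp. The cause was not tested. Motifs past the threshold numbered 12 to 17 in distal and 19 to 20 in promoter windows. No paired analysis was possible because only 1 group was used.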
